A study of Mus musculus with 3 samples.

Results

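The 44 genes described here encode the machinery that copies DNA and the machinery that divides the chromosomes. They were taken from a list of gene symbols fixed by function, with no measured value in the rule, and are 44 of the 21827 protein-coding genes measured. Earlier results of these data were known when the list was made. Of them 28 act in replication, 14 act in mitosis, and the remaining 2, Ccne1 and Ccna2, are cyclins of S phase that were kept out of both classes. Every chromatin value below is a measurement in embryonic mouse liver, made by DNase-seq, in which an enzyme cuts DNA where chromatin is open.

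The study held 3 libraries in 1 group and no comparison group. All came from liver of Mus musculus embryos at 13.5 days, strain C57BL/6N,129, labelled as wild type with the A20 YAC in a single copy, and every library carried that transgene. A YAC is a yeast artificial chromosome, a large piece of foreign DNA kept in the mouse genome. The labels gave each library its own biosample but 1 donor identifier for all 3, and the sex was not collected, so the spread between libraries may be partly technical.

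Before a cell copies its DNA, the origin recognition complex, Cdc6 and Cdt1 load the Mcm2-7 helicase onto origins, and Mcm10, Cdc45 and the GINS complex then switch the helicase on. After replication, cyclin B with Cdk1 and the Aurora and Polo kinases drive mitosis, while the spindle checkpoint holds the anaphase-promoting complex in check. In many cell types, E2F factors bind the promoters of replication genes, and the DREAM and MuvB complexes and the CCAAT-binding factor NF-Y act at promoters of mitosis genes, where MuvB binds the CHR element. The fetal liver is the main site of red cell production in the mid-gestation embryo, and its erythroid precursors divide rapidly.

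Short stretches of open DNA protected from cutting, called footprints, mark candidate bound sites. Footprints of a member's promoter were joined over the libraries where they overlapped, and the joined stretches to which all 3 libraries contributed were searched, with 5 bp added at both ends, for short words of known motifs. A word in a joined stretch need not lie in the footprint of every library, and the number of libraries is given for each site. The first set of sites, 30 bases each, is shown because E2F words were more frequent in the replication genes than in the mitosis genes. Each sequence was read from the RefSeq genome GRCm38.p6, the build mm10, and runs 5′ to 3′ along the gene, with the E2F words in capitals.
Mcm3: acttgggaagtTTTGGCGCcaaggcggtgt
Mcm5: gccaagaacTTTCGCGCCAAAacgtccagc
Mcm6: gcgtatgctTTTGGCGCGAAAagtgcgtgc
Mcm7: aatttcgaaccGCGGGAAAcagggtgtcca
Rfc3: acgtcgcacgcTTTCGCGCtcGCGGGAAAa

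The Mcm3 site lies at chr1:20820256-20820285 on the minus strand, with the word 41 bp downstream of the nearest coding transcription start site (TSS). The Mcm5 site lies at chr8:75109347-75109376 on the plus strand, 208 bp upstream of the TSS. That of Mcm6 lies at chr1:128359795-128359824 on the minus strand, 146 bp upstream. In both Mcm5 and Mcm6 the capitals join 2 overlapping E2F words that face each other. The Mcm7 site lies at chr5:138172030-138172059 on the minus strand, 227 bp upstream of the nearest coding Mcm7 TSS. It lies downstream of the other coding Mcm7 TSS, at chr5:138172422. The neighbour Ap4m1 starts on the other strand, 184 bp from an Mcm7 TSS. The Rfc3 site lies at chr5:151651200-151651229 on the minus strand, 27 bp downstream of the TSS, and its second word in capitals lies outside the joined footprint. The word was in a footprint of all 3 libraries in Mcm3, Mcm5 and Mcm7 and of 2 libraries in Mcm6 and Rfc3.

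The second set comes from mitosis genes and is shown because the CHR word, TTTGAA, was more frequent there than in the replication genes. Capitals mark CHR words and, where they fall in the same 30 bases, CCAAT words.
Cdk1: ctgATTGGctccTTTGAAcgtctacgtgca
Plk1: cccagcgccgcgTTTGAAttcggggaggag
Birc5: ccgcccgcgcgaTTTGAAtcctgcgtttga
Top2a: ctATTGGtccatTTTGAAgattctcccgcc
Kif11: tcgtctccatttTTCAAAattgaggcgcgg

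The Cdk1 site lies at chr10:69352966-69352995 on the minus strand, with its CHR word 43 bp upstream of the nearest coding TSS. The Plk1 site lies at chr7:122159453-122159482 on the plus strand, 28 bp downstream. The Birc5 site lies at chr11:117849289-117849318 on the plus strand, 16 bp upstream, and the Top2a site at chr11:99024351-99024380 on the minus strand, 177 bp upstream. The Kif11 site lies at chr19:37376351-37376380 on the plus strand, 38 bp upstream, and holds the word on the opposite strand. Cdk1 and Top2a each have a CCAAT word, read as ATTGG, a few bases before the CHR word. The CHR word was in a footprint of all 3 libraries in Plk1, Birc5 and Kif11 and of 2 libraries in Cdk1 and Top2a.

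A further set shows CCAAT words that lay in a footprint of each of the 3 libraries, from both classes, with those words in capitals.
Cdc45: ccccagtaggaaCCAATcagaaaggaggaa
Gins3: cagggcttccgcATTGGgcggggacactgg
Ccnb1: gaacccgcggcgCCAATgggaagagagcga
Ccnb2: cttccagtctagCCAATgggttgcgcgcgc
Top2a: agcgagtcggtgATTGGttcctctgatttg

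In replication genes, the Cdc45 site lies at chr16:18811689-18811718 on the minus strand, 78 bp upstream of the nearest coding TSS, and the Gins3 site at chr8:95633403-95633432 on the plus strand, 36 bp upstream. In mitosis genes, the Ccnb1 site lies at chr13:100786568-100786597, the Ccnb2 site at chr9:70421591-70421620 and the Top2a site at chr11:99024230-99024259, all on the minus strand and 13, 59 and 56 bp upstream. The 5 words shown lay within 78 bp upstream of a start, but they were chosen after their values were seen. Other CCAAT words in a footprint of each of the 3 libraries lay elsewhere. Examples were 507 bp downstream in Mcm7, 33 bp downstream in Mcm10 and 182 bp upstream in Mki67.

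Replicates 1, 2 and 3 held 34369, 122281 and 60862 peaks and 89836, 342756 and 156638 footprints, so replicate 2 was the richest and replicate 1 the sparsest. Read totals were not used here, and the depth is unknown. The tissue label was checked against markers fixed by cell type. All 10 erythroid markers had a promoter peak in all 3 libraries, against 3 of 10 hepatoblast markers (Foxa3, Hhex and Prox1), 1 of 5 endothelial, 3 of 5 mesenchymal and 0 of 5 neural and muscle markers. Among all coding genes the share was 51.4%. By library, 3, 8 and 7 of the 10 hepatoblast markers had a peak in replicates 1, 2 and 3, fewest in the sparsest library. Alb and Serpina1a, defining genes of hepatocytes, had a listed promoter peak in none of the libraries, whereas Afp, Hnf4a, Ttr and Apoa1 had one in 2. The median percentile of the erythroid markers was 59.7, 72.5 and 80.7 in replicates 1, 2 and 3, and the part of this difference in the values below was not tested.

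Every member had open promoter chromatin. A promoter was the 1000 bp either side of any TSS of a coding transcript, and 28 of 28 replication genes, 14 of 14 mitosis genes and both cyclins had a peak there in all 3 libraries. Among all coding genes 51.4% had one in all 3 libraries, and 54.0%, 67.3% and 56.4% had one in replicates 1, 2 and 3. Among coding genes with a CpG-rich promoter, the kind typical of housekeeping genes, it was 84.6%. By that criterion (GC content of at least 0.5 and an observed to expected CpG ratio of at least 0.6) 8 of 28 replication genes, 5 of 14 mitosis genes and 2 of 2 cyclins were CpG-rich, against 30.7% of all coding genes. Every member also had at least 1 promoter footprint in each library, against 49.5% of coding genes with one in all 3. In bulk tissue, a weaker signal from fewer cells of a type and from less opening per cell cannot be told apart.

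Signal is the authors' deposited value per peak, which has no stated unit, so genes are compared by percentile, the percentage of coding genes with a lower promoter signal in the same library. The median percentile of the replication genes was 85.3, 87.5 and 86.7 in replicates 1, 2 and 3, and that of the mitosis genes 73.9, 82.9 and 84.5. Both classes were far above the median coding gene, at 49.9 ± 0.0375. As means over libraries, the classes stood at 86.5 ± 1.14 and 80.4 ± 5.71 (SD, n = 3 libraries), with CpG-rich coding genes at 74.0 ± 1.02. By library the CpG-rich median was 74.7, 74.4 and 72.8, so the mitosis median lay slightly below it in replicate 1. The median signal itself was 4.50, 13.97 and 9.76 in replication genes, against 3.10, 11.5 and 8.68 in mitosis genes and 0.672, 0.983 and 0.561 in all coding genes.

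**Figure D1:**
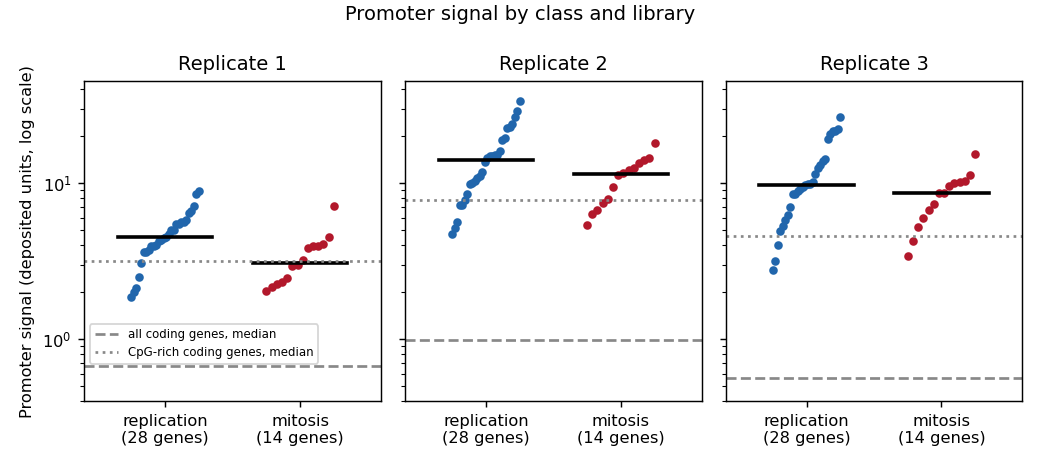
Highest peak signal in each promoter (vertical axis, deposited units, log scale) for each replication and mitosis gene (points, ordered by value) in each of the 3 libraries; thick bars are class medians, and lines are medians of all coding and of CpG-rich coding genes. The replication median lies above the mitosis median in each panel, with the widest gap in replicate 1 (4.50 and 3.10), and the points of the classes overlap.

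The replication genes had the higher median in every library, by 11.4, 4.63 and 2.24 percentile points in replicates 1, 2 and 3 (6.09 ± 4.74, SD, n = 3). The gap varied almost as much between libraries as its own size, and without replicate 1 it was 3.44 points. With 1 group of libraries there was no test of it, and genes are not replicates of a class. The ranges of the gene means overlapped, at 65.2 to 99.4 for replication and 66.6 to 93.2 for mitosis. A mean percentile of 90 or more was reached by 8 of 28 replication genes, 1 of 14 mitosis genes and both cyclins, against 9.48% of coding genes.

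**Figure D2:**
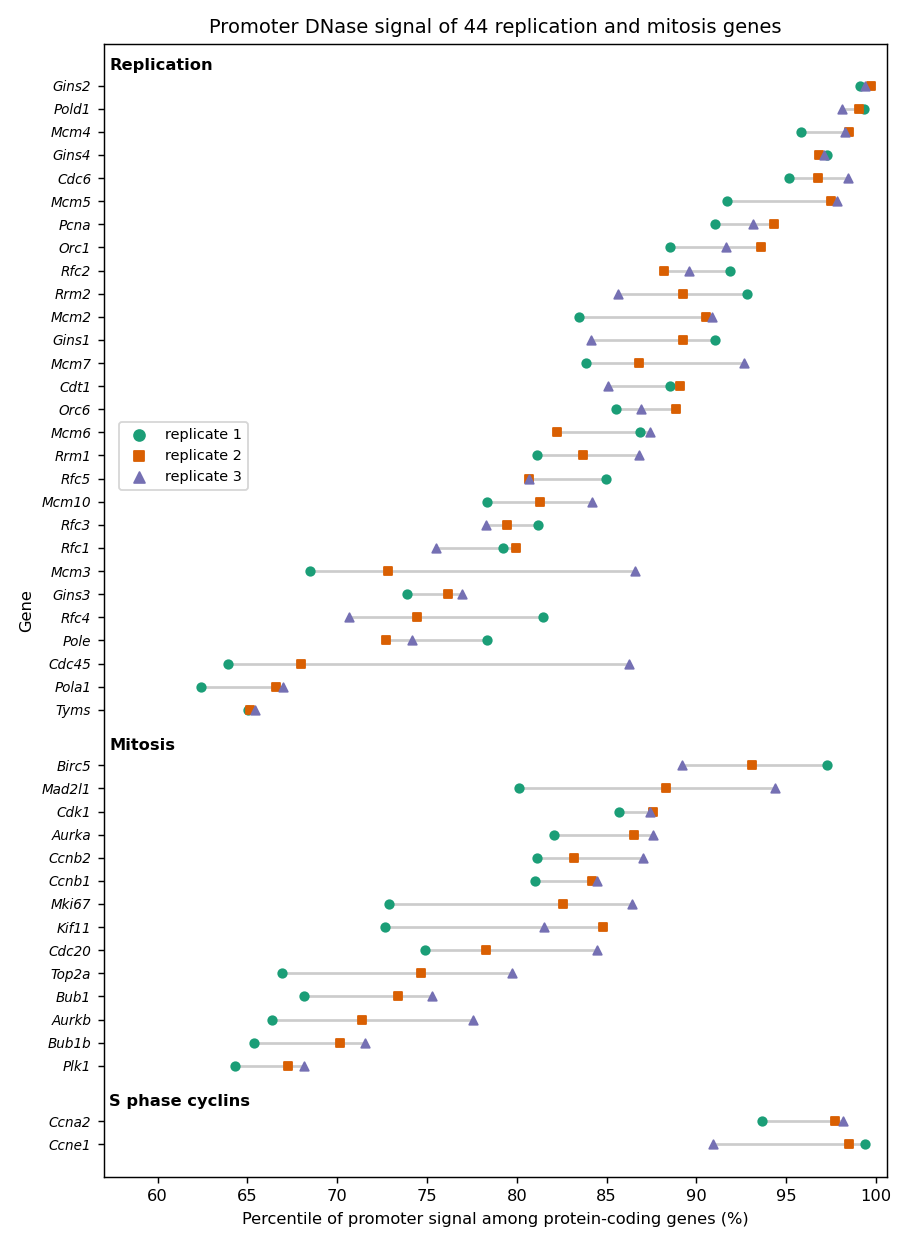
Percentile of promoter signal among protein-coding genes (horizontal axis, %) for each of the 44 genes in each library (symbols), by class and ordered by the mean; grey lines join the lowest and highest library. Gins2 leads the replication genes with a mean of 99.4 and Birc5 the mitosis genes with 93.2, while Cdc45 and Mcm3 stand apart in replicate 3.

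Among the licensing genes, which prepare origins, the median percentile was 87.7, 89.8 and 91.3 in replicates 1, 2 and 3 (89.6 ± 1.80), and was the highest of the 7 role groups of the 2 classes. Mcm4, a subunit of the helicase, had signals of 6.64, 26.5 and 21.7 in replicates 1, 2 and 3, at percentiles of 95.8, 98.5 and 98.3. Prkdc, a DNA repair kinase gene, starts 489 bp away on the other strand and its window overlaps, but the midpoint of the strongest Mcm4 peak lay 80, 100 and 90 bp upstream of the Mcm4 start. Cdc6, a loader of the helicase, had signals of 6.46, 22.7 and 22.1 with no coding neighbour on the other strand within 1000 bp.

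The 6 helicase subunit genes did not share 1 level. Mcm4 and Mcm5 averaged percentiles of 97.5 ± 1.51 and 95.7 ± 3.44, Mcm2, Mcm7 and Mcm6 88.3 ± 4.19, 87.8 ± 4.49 and 85.5 ± 2.85, and Mcm3 76.0 ± 9.47. Mcm3 was low in replicates 1 and 2, at signals of 2.51 and 7.29, and higher in replicate 3, at 9.70. In Mcm7 the strongest peak changed place: its midpoint lay 518 and 528 bp downstream of the nearest coding TSS in replicates 1 and 2 and 152 bp upstream in replicate 3. Orc1 and Orc6, of the origin recognition complex, averaged 91.3 ± 2.57 and 87.1 ± 1.67, and Cdt1, a loading factor, 87.6 ± 2.19.

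The helicase activation genes spanned most of the range of their class. Gins2, of the GINS complex, had signals of 8.54, 33.7 and 26.4 in replicates 1, 2 and 3, the top of all 44 genes by mean percentile (99.4 ± 0.300). Its partners Gins4, Gins1 and Gins3 averaged 97.1 ± 0.235, 88.1 ± 3.56 and 75.7 ± 1.61, so genes for 1 complex differed by more than the spread of each between libraries. Cdc45, which rides with the helicase, had signals of 2.02, 5.65 and 9.50 and a mean percentile of 72.7 ± 11.9. It was low in replicates 1 and 2 and stood at a percentile of 86.2 in replicate 3, and its window overlaps that of Ufd1, which starts 140 bp away. Mcm10, a scaffold of activation, averaged 81.3 ± 2.92.

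Polymerase and clamp genes had a median percentile of 81.4, 80.0 and 78.3 in replicates 1, 2 and 3. Pold1, the catalytic subunit of polymerase delta, had signals of 8.93, 28.9 and 21.4, at percentiles of 99.3, 99.1 and 98.1. Pola1, the catalytic subunit of the polymerase that makes primers, on the X chromosome, had signals of 1.87, 5.19 and 3.16, at 62.4, 66.6 and 67.0. Pold1 was thus near the top of all coding genes in each library and Pola1 near the bottom of the 44. Pole, of the leading-strand polymerase, averaged 75.1 ± 2.91, and its window overlaps that of Pxmp2. Pcna, the sliding clamp, averaged 92.8 ± 1.67, and its loaders Rfc1 to Rfc5 ranged between 75.5 and 89.9.

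Of the nucleotide supply genes, Tyms, which makes thymidylate, had signals of 2.13, 4.72 and 2.79 and the lowest mean percentile of the replication class, at 65.2 ± 0.187. Rrm2 and Rrm1, the subunits of ribonucleotide reductase, averaged 89.2 ± 3.58 and 83.9 ± 2.85. Tyms had the smallest spread in percentile between libraries of the 44 genes.

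In mitosis, Birc5, which encodes survivin of the chromosomal passenger complex, had signals of 7.13, 18.1 and 11.3 in replicates 1, 2 and 3, at percentiles of 97.3, 93.1 and 89.2. Cdk1, the master mitotic kinase, had 4.55, 13.996 and 10.2, at 85.7, 87.6 and 87.4. Its partners Ccnb1 and Ccnb2 averaged percentiles of 83.2 ± 1.91 and 83.8 ± 3.00. The kinase that lay lowest was Plk1, with signals of 2.05, 5.42 and 3.39 and a mean percentile of 66.6 ± 2.01. Aurkb, the kinase of the passenger complex, had signals of 2.27, 6.77 and 5.99 and averaged 71.8 ± 5.60, whereas Aurka, of the spindle poles, averaged 85.4 ± 2.93, and its window overlaps that of Cstf1, which starts 199 bp away. Birc5 was above Aurkb, its partner in the complex, in every library.

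Mad2l1, a spindle checkpoint gene, had signals of 3.84, 14.4 and 15.3 and a mean percentile of 87.6 ± 7.18. Bub1b, another checkpoint gene, had 2.16, 6.37 and 4.23 and averaged 69.0 ± 3.23. Mad2l1 was above Bub1b in every library, and Bub1, a checkpoint kinase, and Cdc20, the activator of the anaphase-promoting complex, lay between them at 72.3 ± 3.68 and 79.2 ± 4.83. The chromosome and spindle genes Top2a, a topoisomerase, Mki67, the source of the Ki-67 marker, and Kif11, a spindle motor, averaged 73.8 ± 6.46, 80.6 ± 6.98 and 79.7 ± 6.29. All 3 were lowest in replicate 1.

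The S phase cyclins were among the most open of the 44. Ccna2 had signals of 6.01, 24.4 and 21.5 and Ccne1 9.11, 26.5 and 12.4 in replicates 1, 2 and 3, at mean percentiles of 96.5 ± 2.49 and 96.3 ± 4.67. Their order changed between libraries: Ccne1 was the higher in replicates 1 and 2 and Ccna2 in replicate 3.

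The order of the members was similar between libraries, with Spearman's rho over the 44 genes of 0.917 for replicates 1 and 2, 0.772 for replicates 1 and 3 and 0.873 for replicates 2 and 3. Over the 11221 coding genes with a peak in all 3 libraries these were 0.946, 0.878 and 0.958. These are correlations across genes, which are not independent replicates. The ratio of signal in replicate 3 to that in replicate 2 had a median of 0.737 over the members and 0.640 over those coding genes. It exceeded 1 for 4 of the 44, at 1.68 for Cdc45, 1.33 for Mcm3, 1.06 for Mad2l1 and 1.02 for Mcm7. For Mcm7 the strongest peaks compared lay at different places, as given above. The ratio was lowest for Ccne1, at 0.468. Among those coding genes it exceeded 1 for 7.9%, a share near that of the members.

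In extent, the classes were alike. The median number of promoter footprints was 5, 12 and 7 for replication genes in replicates 1, 2 and 3, and 5, 11.5 and 6 for mitosis genes, against 1, 6 and 2 for all coding genes. Open promoter DNA, counted from the deposited intervals of low false discovery rate (none above 0.05), had a median length of 734, 1134 and 856 bp for replication genes, against 603, 1253 and 823 bp for mitosis genes. The difference thus changed sign between libraries. The strongest peak was a median of 227 ± 11.5 bp wide in replication genes and 233 ± 20.8 bp in mitosis genes. Footprints overlapping in all 3 libraries numbered 113 over the replication genes, with a median of 3.5 a gene, and 41 over the mitosis genes, with a median of 2.5, against a median of 0 for all coding genes. Mcm4 had the most, 10, and Mcm3 the fewest, 1.

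In position, mitosis promoters were the more uniform. The midpoint of the strongest peak lay upstream of the nearest coding TSS in 15, 16 and 20 of 28 replication genes in replicates 1, 2 and 3, and in 13, 14 and 14 of 14 mitosis genes. Among all coding genes with a peak the share was 64.9%, 62.6% and 74.4%, so the replication genes lay near or below it. It lay within 250 bp of a TSS in 26, 27 and 28 of 28 replication genes and in 14 of 14 mitosis genes in each library, against 83.8%, 81.1% and 83.9% of coding genes with a peak. In the other replication genes described below that share was 92.5% in each library, and in the other mitosis genes 95.6%, 93.3% and 93.3%. The midpoint lay upstream in 26, 30 and 29 of those 40 replication genes and in 39, 38 and 40 of those 45 mitosis genes. Around the most upstream coding TSS, peak coverage of replication genes reached its highest value 40 or 60 bp upstream, at 89.3%, 92.9% and 96.4% of genes. That of mitosis genes was 100% at 80 or 100 bp upstream, but at 40 bp upstream it was also 100%, 100% and 92.9%. The mitosis maximum was thus a plateau in replicates 1 and 2, and these positions do not show a shift between the classes.

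**Figure D3:**
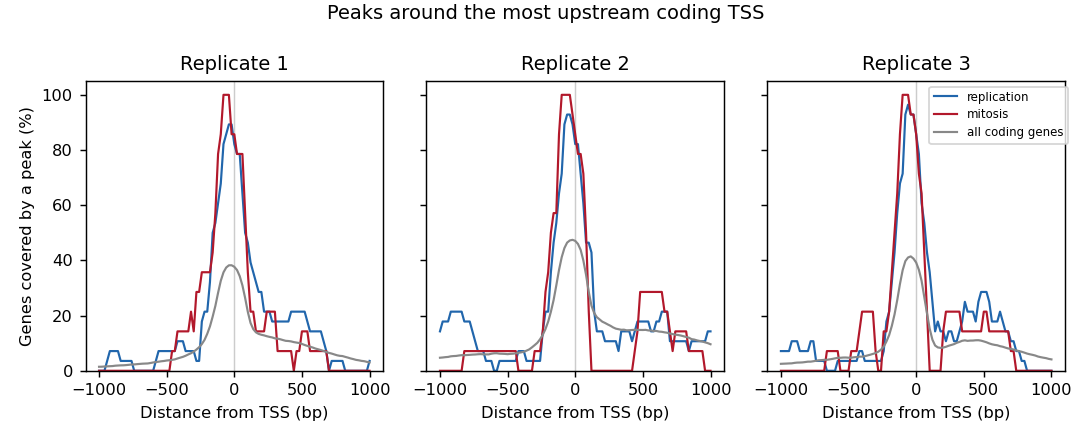
Percentage of genes covered by a peak (vertical axis) by distance from the most upstream coding TSS (horizontal axis, bp, negative upstream) in each library, for 28 replication genes, 14 mitosis genes and all coding genes. Both classes reach at least 89.3% just upstream of the start, where all coding genes reach at most 47.5%.

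Some members of both classes had divergent promoters. A coding gene started on the other strand within 1000 bp of 6 of 28 replication genes and 1 of 14 mitosis genes, against 10.5% of all coding genes. The share was 19.6% of CpG-rich coding genes, and 35% and 20% of the other replication and other mitosis genes described below. The members were Mcm4 with Prkdc, Orc1 with Prpf38a, Mcm7 with Ap4m1, Orc6 with Vps35, Pole with Pxmp2, Cdc45 with Ufd1 and, in mitosis, Aurka with Cstf1. The distances ranged from 11 bp for Orc6 to 489 bp for Mcm4. Without such genes, the difference between the class medians was 6.04 ± 6.15 percentile points. Away from promoters, 6 of the 44 members had a peak in the gene body that was seen in all 3 libraries, against 18.2% of coding genes. Bub1b had 2, and Cdc6, Rfc1, Rfc2, Rrm2 and Ccne1 had 1 each.

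The classes also differed in the words of their promoter DNA. Words of 7 motifs were counted on both strands in the 300 bp that ran 250 bp before to 50 bp after the most upstream coding TSS, as a description of letters and not of binding. An E2F word (TTTCCCGC, TTTGGCGC, TTTCGCGC or TTTGCCGC) was in 11 of 28 replication genes (39.3%) and 1 of 14 mitosis genes (7.14%), against 2.85% of all coding promoters. The 11 were Orc1, Cdc6, Cdt1, Mcm3, Mcm4, Mcm5, Mcm6, Gins1, Pola1, Pole and Rfc3, and 7 of the 10 licensing genes were among them. The mitosis gene was Cdk1. The share without such a word says nothing about the factor, since other spellings and windows were not counted.

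The CHR word, TTTGAA, showed the opposite pattern. It was in 2 of 28 replication genes (7.14%), Mcm2 and Cdc45, and in 10 of 14 mitosis genes (71.4%), against 16.1% of all coding promoters. The 10 were Ccnb2, Cdk1, Plk1, Aurka, Aurkb, Bub1b, Cdc20, Top2a, Mki67 and Kif11, and each of these also held a CCAAT word. That pair of words was in 2 of 28 replication promoters and 7.05% of all coding promoters. E2F and CCAAT words stood together in 10 of 28 replication genes, 1 of 14 mitosis genes and 1.26% of coding promoters.

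CCAAT words were common in both classes, in 20 of 28 replication genes and 12 of 14 mitosis genes, against 38.8% of coding promoters. In the list of other replication genes described below, the share was only 40%. At least 2 of them were present in 11 replication genes (39.3%) and 9 mitosis genes (64.3%), against 12.6% of coding promoters. Top2a had 6, the most counted in a member. Neither S phase cyclin had an E2F, CHR or CCAAT word in the window, and both had GC boxes.

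Of the other words, the GC box (GGGCGG) was in 20 of 28 and 12 of 14, against 44.9% of coding promoters, and the ETS word (CCGGAAG) in 11 of 28 and 2 of 14, against 11.1%. The NRF1 word was in 2 of 28 and 1 of 14, near the 6.17% of coding promoters. The GATA word (AGATAA), bound by the erythroid factor GATA1, was in 1 of 28 and 1 of 14, against 9.93%. Among CpG-rich coding promoters the GC box was in 76.0%, the ETS word in 16.7%, the NRF1 word in 12.4% and the GATA word in 3.84%. The GC box shares of the classes were thus nearer to those of CpG-rich promoters. No word of fixed letters contained one of another motif, but words could share bases at their ends and overlapping words were counted separately.

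**Figure D4:**
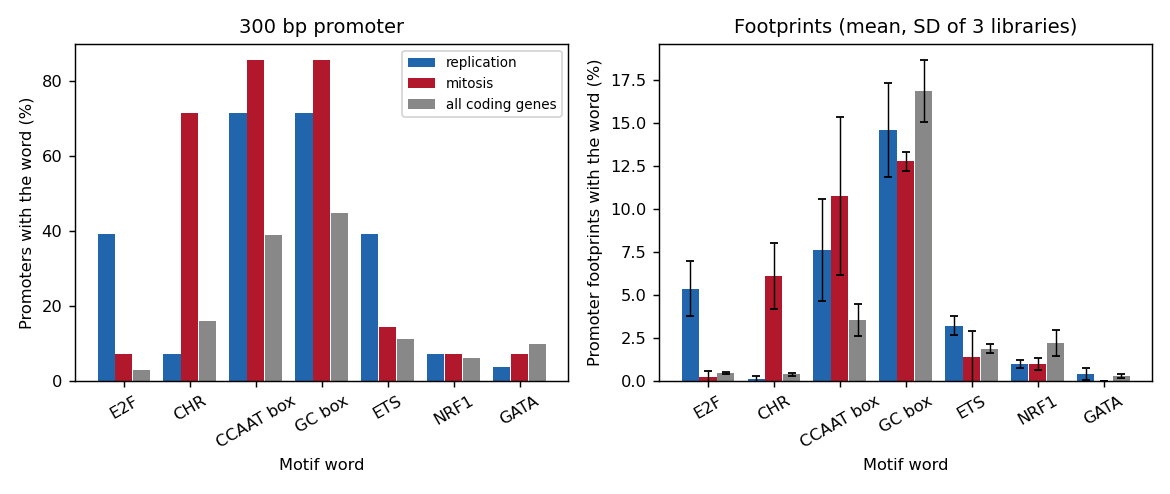
Percentage of 300 bp promoters with a motif word (left) and of promoter footprints with one (right; bars are means and error bars the SD of the 3 libraries), for 28 replication genes, 14 mitosis genes and all coding genes. E2F words stand out in replication genes (39.3% of promoters) and CHR words in mitosis genes (71.4%), in both panels.

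Where the words lay was counted as well. The 19 E2F words of the replication promoters had a median position of −5 bp from the TSS, where minus means upstream, and 11 lay within 50 bp of it. The 14 CHR words of the mitosis promoters had a median of −28.5 bp, with 9 within 50 bp. In the 50 bp after the TSS, 5 of 14 mitosis promoters held a CHR word and 0 of 14 an E2F word, whereas 1 of 28 replication promoters held a CHR word and 5 of 28 an E2F word. Among all coding promoters the CHR word was in 1.96% there and the E2F word in 0.573%. CCAAT words lay farther out, at a median of −62.5 bp in replication genes and −60 bp in mitosis genes.

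**Figure D5:**
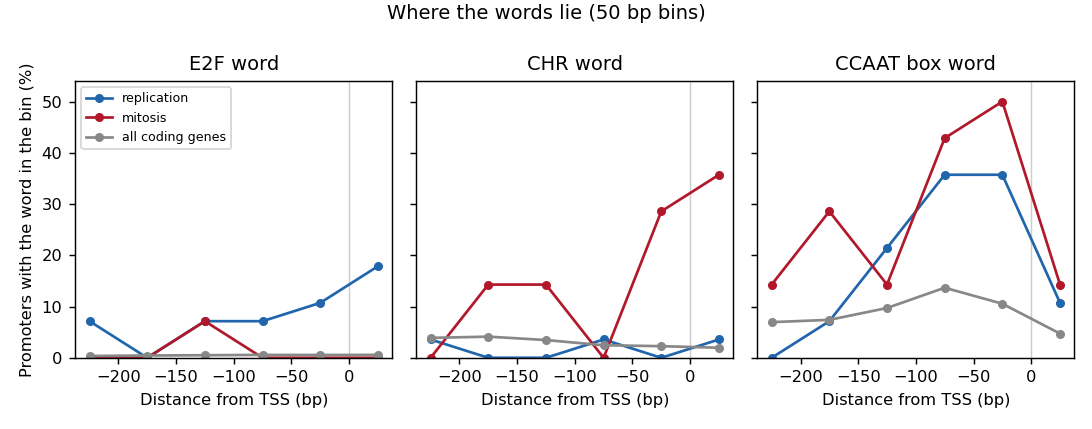
Percentage of promoters with an E2F, CHR or CCAAT word in each 50 bp bin (vertical axis) by distance from the most upstream coding TSS (horizontal axis, bp, negative upstream), for 28 replication genes, 14 mitosis genes and all coding genes. The CHR share of mitosis genes is highest in the bin after the start, at 35.7%, and their CCAAT share in the bin before it, with 7 of 14 genes.

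The same division was seen inside footprints, each extended by 5 bp at both ends. These footprints lie in promoters whose words already differed, so the direction is not a separate result. Open DNA outside footprints was not searched for comparison. E2F words were in 6, 20 and 16 promoter footprints of replication genes in replicates 1, 2 and 3, or 3.70%, 5.48% and 6.93% of them, and in 0, 1 and 0 of mitosis genes. The means were 5.37% ± 1.61 and 0.211% ± 0.365 of footprints (SD, n = 3 libraries), against 0.450% ± 0.0779 for all coding genes. CHR words were in 0, 1 and 0 footprints of replication genes, and in 3, 10 and 8 of mitosis genes, or 4.05%, 6.33% and 7.92% of them. The means were 0.0913% ± 0.158 and 6.10% ± 1.94, against 0.391% ± 0.0906 for all coding genes. The E2F share was thus higher in replication genes in each library, and the CHR share in mitosis genes. Without the 5 bp extension the difference of replication minus mitosis was 2.71 points for E2F, against 5.16 with it, and −1.95 points for CHR, against −6.01.

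Counted by gene, an E2F word lay in a footprint in every library in 6 of 28 replication genes and 0 of 14 mitosis genes, against 0.793% of coding genes. A CHR word did so in 0 of 28 and 3 of 14 (Plk1, Birc5 and Kif11), against 0.44%. CCAAT words did so in 6 of 28 and 4 of 14, against 5.99%, GC boxes in 19 of 28 and 5 of 14, against 27.3%, and ETS words in 4 of 28 and 0 of 14, against 3.82%. NRF1 words did so in 2 of 28 and 1 of 14, against 6.83%, and GATA words in 0 of 28 and 0 of 14, against 0.252%. Promoters of coding genes without peaks hold no footprints to search, so these shares rest partly on openness.

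In the footprints joined over the libraries, E2F words fell in 9 sites of 9 replication genes and in none of the mitosis genes, against 1.28% of coding genes with such a site. The sites were in Mcm3, Mcm4, Mcm5, Mcm6, Mcm7, Gins1, Gins2, Pole and Rfc3, so 5 of the 6 helicase subunit genes had one. The count is above the 6 genes given before because in Mcm6, Gins2 and Rfc3 the word lay in a footprint of 2 libraries. CHR words fell in 0 of 28 replication genes and in 5 sites of 5 mitosis genes, those of Cdk1, Plk1, Birc5, Top2a and Kif11 printed above, against 0.994% of coding genes. CCAAT words fell in 12 sites of 9 replication genes and in 10 sites of 8 mitosis genes, against 9.21% of coding genes. Among the mitosis genes were Ccnb1, Ccnb2, Cdk1, Aurka, Aurkb and Bub1.

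The level of opening did not follow the presence of E2F and of CHR words in the 300 bp window in the same direction. Genes with a word in a footprint elsewhere in the promoter only, such as Mcm7 for E2F and Birc5 for CHR, counted as without one. Replication genes with an E2F word had a median percentile, averaged over the libraries, of 88.1 ± 1.30 (11 genes) and those without one 85.8 ± 1.72 (17 genes). In replicate 3 the order was the other way, at 86.6 with the word and 86.8 without it. Mitosis genes with a CHR word in the window stood at 78.7 ± 5.32 (10 genes). Those without one there, Birc5 among them, stood at 84.6 ± 3.46 (4 genes). This order held in each library, at 72.8, 80.4 and 83.0 with the word and 80.6, 86.3 and 86.8 without it.

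Other genes of the pathways, from a list made by function, were open as well. That list was made with earlier results of these data known, so it is not an independent check. All 40 other replication genes and all 45 other mitosis genes had a promoter peak and a footprint in all 3 libraries, against the 51.4% and 49.5% of coding genes given above. Their median percentiles were 84.9 ± 1.41 and 84.4 ± 2.56, a smaller gap than between the 28 and the 14. By library, the other replication genes stood at 85.7, 85.7 and 83.3 and the other mitosis genes at 81.8, 84.6 and 86.9, so their order turned round in replicate 3.

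In those lists Chtf18 and Chaf1b, which act in clamp loading and chromatin assembly, were the highest for replication, at mean percentiles of 97.1 ± 3.33 and 96.4 ± 2.24, and Tk1 and Dna2 the lowest, at 62.4 ± 4.71 and 66.3 ± 2.29. For mitosis, Fzr1, an activator of the anaphase-promoting complex, and Ncapg, a condensin subunit, stood at 99.97 ± 0.0161 and 98.7 ± 0.499, and Pttg1, which encodes securin, and Cenpa, the centromeric histone, at 58.8 ± 3.28 and 69.2 ± 12.8. E2F words were in 9 of the 40 and 2 of the 45 promoters, and CHR words in 3 of the 40 and 22 of the 45. CCAAT words were in 16 of the 40, near the 38.8% of coding promoters, and in 31 of the 45. E2F and CCAAT words stood together in 3 of the 40 and 1 of the 45, against 1.26% of coding promoters.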

How the data were processed

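DNase-seq of 3 libraries in 1 group was used, with coordinates in mm10, per the labels. The peak caller is not given in the sources used here, and read totals were not used. For each library the authors deposited 2 peak lists, whose column 7 is a signal per peak on a scale not stated, a list of intervals with a false discovery rate (a q-value), and footprints with a constant score of 0.01. The list with more peaks was used. The annotation was GENCODE M21 basic; 99.9% of its start codons read ATG in the genome used. A peak counted where it overlapped a promoter by at least 1 bp, the highest signal was taken, and genes without a peak had 0. Windows of neighbouring genes can overlap.

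With 1 group no test was made; values are per library or mean ± SD. Named in full were the 3 highest and 3 lowest genes of each class by mean percentile, both S phase cyclins and any member without a peak (none); other members are named for their roles. The sites printed, and Cdc6 in full, were chosen after their values were seen. The members and lists were chosen with earlier results of these data known. Of the 44 members 36 were in the RefSeq promoter table, and sequences are printed only for those. Overlap and percentile code was tested on simulated data. Tools were Python 3.11.15, pandas 2.3.3, pysam 0.24.0, samtools 1.23.1 and bedtools 2.31.1. Alternatives were other windows, peak lists, overlaps and scales, and each library left out.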

Additional observations from a re-analysis of the deposited data

How the results depend on the processing

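Of the 99 alternative values computed, 87 stayed within the spread between libraries or, for the promoter words, within 10 percentage points. The share of members with a promoter peak and with a footprint was 100% in both classes throughout. This was fixed beforehand without a library, at 2500 bp, with the cyclins moved into the classes and without divergent genes. Every member already had both in all 3 libraries. Shorter peak lists left the class medians at 86.5 and 80.4, since dropping weak peaks does not reorder the genes above them. Such values are among the 87, so that count overstates how far the results were tested. The replication median percentile was 84.7 with summed signal and, among CpG-rich coding genes only, 71.3, with the mitosis median then 60.7. Leaving out a library gave replication minus mitosis differences of 3.44 to 8.01 percentile points. Their sign could not change, because the difference was positive in each library. In a window of 500 bp before to 100 bp after the TSS, the replication minus mitosis difference in promoters with a word was −50.0 points for CHR (−64.3 in the shorter window), −3.57 for CCAAT (−14.3), 0.0 for the GC box (−14.3), 14.3 for ETS, lower than in the shorter window, and 7.14 for GATA, which reversed it (−3.57). With any coding TSS the CHR difference was −75.0. With footprints not extended the differences were 2.71 points for E2F and −1.95 for CHR, and with 10 bp added −8.75 for CHR. The alternatives on TSS choice for words, on footprint extension and without divergent neighbours were chosen after seeing the data. No paired analysis was possible because the libraries form 1 group. The unknown depth limits what a missing footprint means, most of all in replicate 1, and the cause of the shifts was not tested.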
